A study of Mus musculus with 6 samples.

Results

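The p53 targets and apoptosis genes described here are 9 listed members, taken from the deposited table through every probe set annotated to one of them alone. A probe set of its own was found for 8 of the 9 (Mdm2, Cdkn1a, Ccng1, Bcl2l11, Bbc3, Pmaip1, Perp and Trp53inp1), and Bax was not analysed here. They hold 18 of the 45037 probe sets tested and 8 of the 18193 genes. Each gene is represented by its brightest probe set, the one with the highest mean log2 intensity over the 6 arrays.

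p53 is a transcription factor that accumulates after DNA damage and other stress and switches on genes that stop the cell cycle or start apoptosis, the programmed death of a cell. The mitochondrial branch of apoptosis is set by the BCL2 family, in which BH3-only proteins oppose the survival proteins and release the pore formers. In the embryonic kidney both arms are in use. Mice without Bcl2 form small, cystic kidneys, loss of its antagonist Bcl2l11 counters that defect, and Mdm2 is needed in the ureteric bud and in nephron progenitors to hold p53 in check.

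The arrays held RNA from whole kidneys dissected from E13.5 mouse embryos, of mixed C57BL/6, 129X1/SvJ and 129S1/Sv background. The 3 control arrays (C1, C2 and C3) carried Fz4+/+Fz8-/- kidneys, here Fz8-null, and the 3 test arrays (M1, M2 and M3) carried Fz4-/-Fz8-/- kidneys, here double-null. Both groups therefore lack the Wnt receptor gene Fzd8, no wild-type kidney was in the comparison, and only the loss of Fzd4 separates them by design. The labels call the arrays of a genotype biological replicates and do not say how many embryos each holds.

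Genotype and tissue were checked first. The Fzd4 probe set averaged 10.84 ± 0.09 on the Fz8-null arrays but 4.71 ± 0.74 on the double-null ones (SDs of 3 arrays each), a log2 difference of -6.13 (limma adjusted p = 0.00318), with an adjusted p of 0.0635 without C1 and 0.0507 without C3, where the differences were -6.18 and -6.09. All 11 measured nephron progenitor markers and all 8 ureteric tip markers were read at mean log2 values of at least 6. All members of both lists lay lower in double-null kidneys, 7 of 11 and 7 of 8 without overlap between the groups. Of all genes 58.1% lay lower and 12.2% did so without overlap. Among the 11174 genes with a mean log2 of at least 6 the shares were 71.5% and 16.3%. The summed log2 level was 13.20 to 13.33 in Fz8-null and 12.73 to 12.89 in double-null kidneys for the progenitor list, and 12.21 to 12.38 against 11.40 to 11.73 for the tip list. All 7 liver markers lay higher, with a summed level of 8.77 to 9.58 against 10.08 to 13.32. Erythroid (10 of 11) and macrophage (10 of 12) markers lay higher mainly in M2 and M3, with summed levels of 13.62 to 13.79 against 13.31 to 14.65 and of 10.77 to 10.97 against 10.86 to 12.02. Endothelial (7 of 10) and skeletal muscle (7 of 8) markers lay lower. Stroma markers (5 of 6 lower) had a median of -0.062, against -0.061 for all genes and -0.15 for those with a mean log2 of at least 6. Ureteric epithelium (4 of 8 lower), neural (2 of 7 lower) and proliferation genes (5 of 11 lower) were mixed. The part of these other cells in the results was not tested, and in whole kidneys fewer cells of a type and less RNA per cell cannot be told apart.

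Matches to the p53 binding motif lay in the promoters of 3 measured members and are shown because these genes are the classical p53 targets of the list. Promoters of 300 bases, 250 before and 50 after the transcription start, came from RefSeq (GRCm38.p6) for 6 of the 9 members and were searched for the p53 half-site, a 10-base motif that reads the same on both strands. These 6 genes have 10 promoters in the table. A half-site was present in 4 of the 10, 1 each of Cdkn1a, Mdm2, Ccng1 and Bax, against 8.36% of all 32851 promoters. The stretches below run 5′ to 3′ on the gene's strand, and capitals mark every exact half-site in the stretch together with any adjoining 10 bases that match it with at most 1 mismatch.
Cdkn1a, chr17:29090903-29090962, + strand: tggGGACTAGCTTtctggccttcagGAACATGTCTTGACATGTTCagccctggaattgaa
Ccng1, chr11:40755437-40755496, - strand: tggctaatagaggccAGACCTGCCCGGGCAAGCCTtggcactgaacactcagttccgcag
Mdm2, chr10:117710910-117710969, - strand: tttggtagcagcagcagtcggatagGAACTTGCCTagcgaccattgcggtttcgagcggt
In 1 of its 2 promoters Cdkn1a has exact half-sites 73 and 51 bases before the start. Its other promoter (chr17:29093519-29093818) has 0. Ccng1 has a half-site 185 bases before its start. The one at 51 bases in Cdkn1a and that of Ccng1 each adjoin a further half-site with 1 mismatch, an arrangement found in 29 of the 32851 promoters (0.0883%). In the Mdm2 stretch, 186 bases before the start, the half-site stands alone. No half-site lay in the promoters given for Bbc3 and Bcl2l11, which says only that these letters are not in those windows. A match is a description and not evidence of binding in these kidneys.

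None of the 8 members passed the threshold, an adjusted p under 0.05 over all 18193 genes, which 0.0275% of genes passed (limma with Benjamini-Hochberg adjustment). At an unadjusted p under 0.05, 2 members were lower (Bcl2l11 and Bbc3) and 0 higher, where 9.23% of all genes were lower and 6.05% higher. The groups did not overlap for 3 members, all lower in double-null kidneys (Bcl2l11, Bbc3 and Mdm2), which is 37.5% of 8 against 12.2% of all genes lower without overlap and 6.68% higher. The median difference of the 8 was -0.33, against -0.061 for all genes together and -0.15 for the 11174 genes whose mean log2 was at least 6. Among those brighter genes 16.3% were lower without overlap and 3.08% higher, and of the 7 members in that range 2 were lower (Bcl2l11 and Mdm2). With the array medians made equal, Bcl2l11 alone of the 3 kept its groups apart. Quantile normalization ended the separation of Mdm2, and with the mean of all probe sets Bbc3 alone stayed apart and lower while Mdm2 was apart and higher. Array M3 bore on the result: without it, Bcl2l11 (adjusted p = 0.0257) and Cdkn1a (0.0411) passed, but so did 3292 genes in all.

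**Figure D1:**
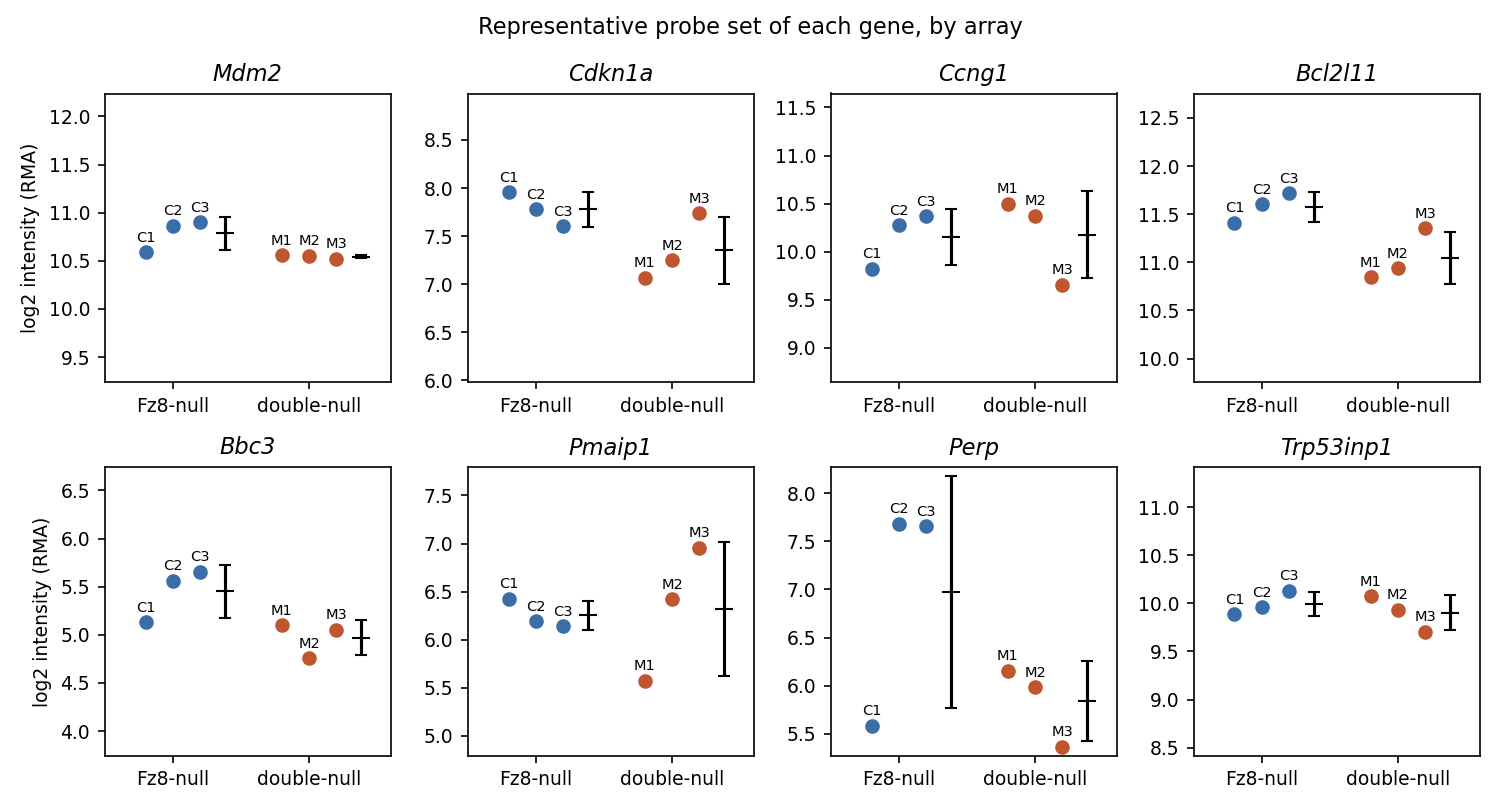
Log2 intensity of the representative probe set of each of the 8 genes on the 6 arrays (points, labelled by array), with the mean and SD of 3 arrays as a black bar; every panel spans 3 log2 units. Double-null points lie below all Fz8-null points for Mdm2, Bcl2l11 and Bbc3, and C1 stands apart from C2 and C3 for Perp at 5.58.

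Mdm2 encodes the ubiquitin ligase that marks p53 for degradation and is itself a p53 target, closing a feedback loop. Its brightest probe set (1423605_a_at) read 10.59, 10.86 and 10.90 in C1, C2 and C3 and 10.56, 10.55 and 10.52 in M1, M2 and M3. The double-null arrays lay close together (SD 0.020) and just below C1, so the groups were apart by a narrow margin. The difference was -0.24 (SE 0.13, 95% interval -0.56 to 0.077, limma adjusted p = 0.389). A second probe set (1427718_a_at) stood at -0.23 with overlap. A dim probe set (1457929_at) went the other way, with 4.0, 3.36 and 3.53 in C1 to C3 and 5.09, 5.89 and 4.08 in M1 to M3, a difference of 1.39 (SE 0.45, adjusted p = 0.322 over all probe sets). Because of it the mean over the Mdm2 probe sets turned to 0.31 (adjusted p = 0.300). On the same arrays the control probe set for the B1 repeat read 11.02, 10.67 and 10.73 in C1 to C3 and 11.83, 12.08 and 10.85 in M1 to M3, so the dim Mdm2 probe set and the B1 signal were both highest in M2 and M1. The part of that signal in this probe set was not tested. With the B1 signal in the model the brightest Mdm2 probe set stood at -0.21.

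Cdkn1a encodes p21, the cyclin-dependent kinase inhibitor through which p53 arrests the cell cycle. Its representative probe set (1424638_at) read 7.96, 7.78 and 7.60 in C1 to C3 and 7.07, 7.25 and 7.74 in M1 to M3. M1 and M2 lay below every Fz8-null array and M3 lay among them. The difference was -0.43 (SE 0.20, 95% interval -0.91 to 0.057, limma adjusted p = 0.346), and it was -0.62 without M3. It was -0.13 once the B1 signal entered the model. In the other probe set (1421679_a_at) M1 and M2, at 5.75 and 5.68, again lay below the Fz8-null arrays (6.08 to 6.23), M3 lay above them at 6.38, and the difference was -0.21. The Actb control, read at its 3′ end minus its 5′ end as a sign of RNA quality, gave log2 values of 1.00, 0.74 and 0.75 in C1 to C3 and 1.30, 1.08 and 0.57 in M1 to M3. It was thus highest in M1 and M2, the arrays lowest for Cdkn1a and for the brightest probe set of Bcl2l11, and its part in those levels was not tested.

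Ccng1, the cyclin G1 gene and a long-known p53 target, did not differ between the groups beyond its spread. It read 9.82, 10.28 and 10.37 in C1 to C3 and 10.50, 10.37 and 9.66 in M1 to M3, with the groups overlapping on both sides. The difference was 0.022 (SE 0.26, 95% interval -0.60 to 0.64, limma adjusted p = 0.972). Its sign turned without C1, without M1, without M2 and with the B1 covariate, where it lay between -0.37 and -0.076. The other probe sets stood at -0.071 (1450017_at) and at 0.19 (1450016_at), and in the latter the groups did not overlap (6.45 to 6.73 against 6.78 to 6.90). The promoter pair of half-sites printed above is thus shared by Cdkn1a, with a difference of -0.43, and Ccng1, with one of 0.022.

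Among the BH3-only genes, Bcl2l11 was lower on all 5 of its probe sets. It encodes Bim, which binds and neutralises BCL2 and its relatives. The brightest probe set (1435448_at) read 11.41, 11.60 and 11.72 in C1 to C3 and 10.85, 10.94 and 11.36 in M1 to M3. The groups did not overlap, although M3 came close to C1. The difference was -0.53, a ratio of 0.692 (SE 0.18, 95% interval -0.95 to -0.11, limma adjusted p = 0.314).

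The other Bcl2l11 probe sets stood at -0.56 (1456005_a_at), -1.09 (1435449_at), -0.90 (1456006_at) and -1.22 (1426334_a_at), the first 2 of them without overlap. In 1456005_a_at the lowest array was M3, at 8.98, so this probe set did not share the order of the brightest one. In the other 3 M1 and M2 lay far below M3, with 5.77 and 5.72 against 6.90 for 1435449_at and 4.10 and 4.32 against 6.01 for 1426334_a_at. The 5 probe sets belong to 1 gene and share their RNA, so they are not replicates of the genotype effect. Once the B1 signal entered the model the brightest stood at -0.21 (adjusted p = 0.997), a fit that leaves few degrees of freedom.

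**Figure D2:**
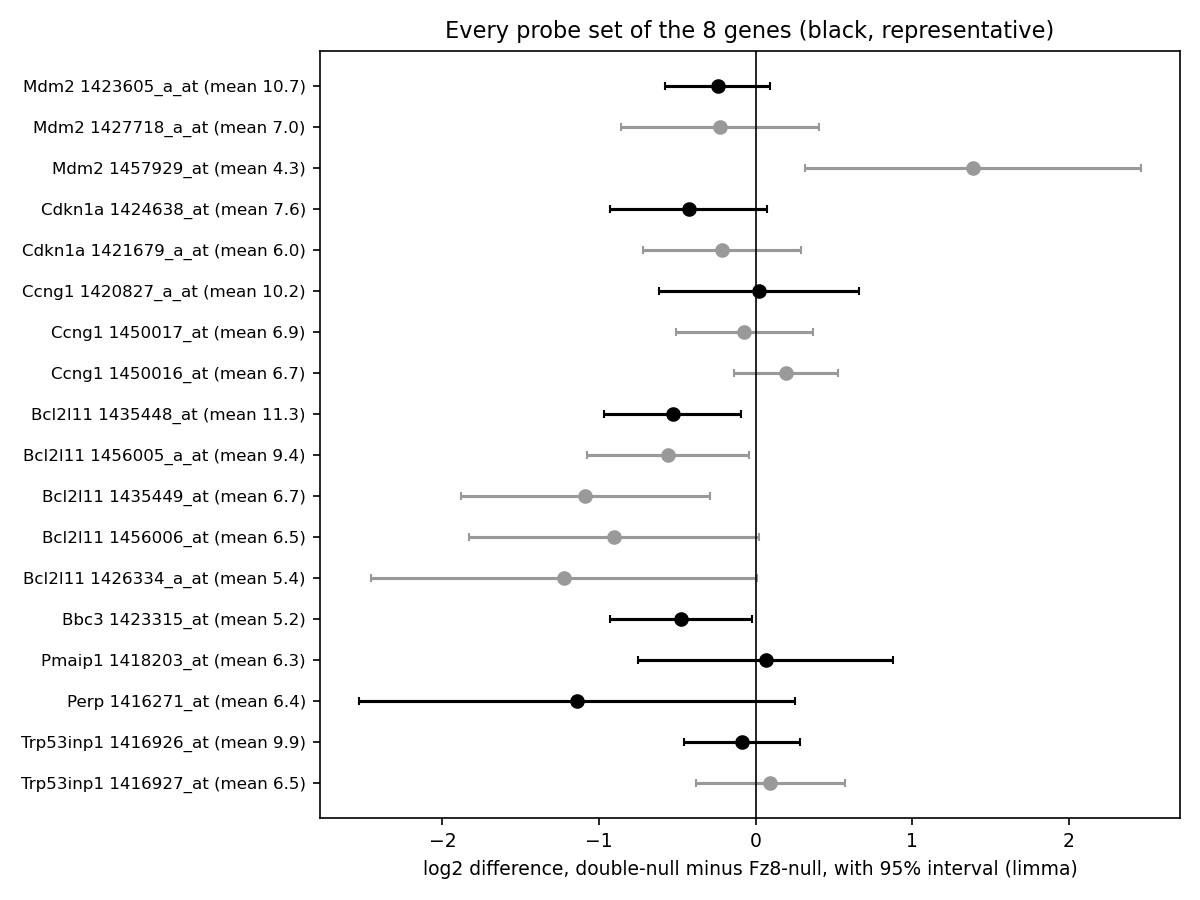
Log2 difference, double-null minus Fz8-null, of each of the 18 probe sets with its 95% interval from limma fitted over all 45037 probe sets; black marks the representative probe set, and the mean log2 level is in brackets. All 5 Bcl2l11 probe sets lie below 0, while those of Mdm2 lie on both sides, from -0.24 to 1.39.

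Bbc3 encodes Puma, a BH3-only protein induced by p53. Its single probe set (1423315_at) was the only representative with a mean log2 below 6 and read 5.13, 5.56 and 5.65 in C1 to C3 and 5.10, 4.76 and 5.05 in M1 to M3. The groups did not overlap, with C1 only just above M1. The difference was -0.48, a ratio of 0.718 (SE 0.18, 95% interval -0.92 to -0.041, limma adjusted p = 0.318), and it was -0.28 once the B1 signal entered the model. Bbc3 lies on chromosome 7 as Fzd4 does, but 73.1 Mb away.

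Pmaip1 encodes Noxa, the BH3-only protein that targets MCL1, and it varied widely among double-null arrays. The Fz8-null arrays read 6.43, 6.19 and 6.14, whereas M1 read 5.58, M2 6.42 and M3 6.96 (1418203_at). M1 was thus the lowest and M3 the highest of all 6. The difference was 0.064 (SE 0.33, 95% interval -0.73 to 0.85, limma adjusted p = 0.932), and it was -0.26 without M3 and 0.44 without M1. Only M3 stood above every Fz8-null array. The liver, erythroid and macrophage lists were highest in M2 and M3, at 3.48 and 3.74 above the Fz8-null mean for the liver list against 0.82 in M1. The part of those cells in the Pmaip1 level was not tested.

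Perp, which encodes a membrane protein of desmosomes that p53 induces in apoptosis and p63 in stratified epithelia, had the largest difference of the 8 and the largest spread. It read 5.58, 7.68 and 7.66 in C1 to C3 and 6.16, 5.99 and 5.37 in M1 to M3 (1416271_at). C1 lay with the double-null arrays, more than 2 log2 units below C2 and C3, so the groups overlapped. The difference was -1.14 (SE 0.57, 95% interval -2.49 to 0.22, limma adjusted p = 0.357). Without C1 it was -1.83 and the groups did not overlap (adjusted p = 0.208), while without C2 or C3 it was -0.79 or -0.80. With the B1 signal in the model it was -1.18.

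Trp53inp1 encodes a nuclear protein that p53 induces and that promotes p53 phosphorylation under stress. It read 9.89, 9.96 and 10.13 in C1 to C3 and 10.07, 9.94 and 9.71 in M1 to M3 (1416926_at), with the groups overlapping. The difference was -0.087 (SE 0.15, 95% interval -0.44 to 0.27, limma adjusted p = 0.774). Its other probe set stood at 0.095 (1416927_at). The intervals of Trp53inp1, Ccng1 and Pmaip1 all include 0, and that of Trp53inp1 is the narrowest of the 3.

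**Figure D3:**
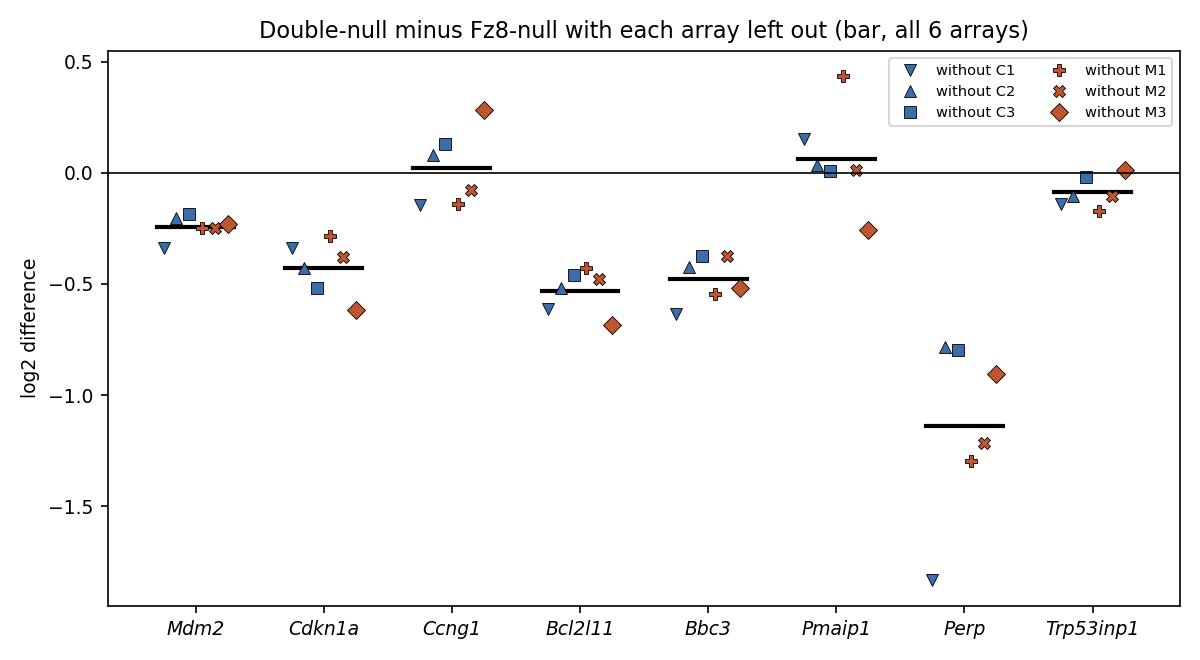
Log2 difference of each gene with all 6 arrays (black bar) and with 1 array left out (symbols). Bcl2l11, Bbc3, Mdm2, Cdkn1a and Perp stay below 0 in every case; Ccng1, Pmaip1 and Trp53inp1 cross 0, and Perp spans -1.83 to -0.79.

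The 8 genes did not follow the arrays as 1 group. Against the Fz8-null mean, M1 had the lowest value of all 6 arrays for Cdkn1a, Bcl2l11 and Pmaip1, M2 for Bbc3, and M3 for Mdm2, Ccng1, Perp and Trp53inp1. Ccng1 stood 0.34 above the Fz8-null mean in M1 and 0.50 below it in M3 (a shift of -0.50), and Pmaip1 the reverse, at -0.68 in M1 and 0.70 in M3. The median shift of the 8 was -0.51 for M1, -0.38 for M2 and -0.28 for M3. Within the Fz8-null group it ran from -0.18 in C1 to 0.14 in C3. The median therefore lay lower in each double-null array than in each Fz8-null array.

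Other p53 target genes were lower more often than higher. Of 29 measured, 24 lay lower (58.1% of all genes did), 7 of them without overlap (24.1%, against 12.2% of all genes) and 0 higher without overlap. All but 6 of the 29 had a mean log2 of at least 6. Of all genes at that level 71.5% lay lower and 16.3% did so without overlap. Of the 29, 0 passed the threshold and 4 had an unadjusted p under 0.05, all lower, where 9.23% of all genes were lower. The list median was -0.22, against -0.061 for all genes and -0.15 for genes with a mean log2 of at least 6. Aen, an apoptosis-enhancing nuclease, read 10.94, 11.31 and 11.19 in C1 to C3 and 10.02, 9.95 and 10.28 in M1 to M3, a difference of -1.06 (SE 0.16, limma adjusted p = 0.177). All 4 Aen probe sets were lower, from -2.12 to -0.60. Aen lies 10.5 Mb from Fzd4 on chromosome 7, so sequence linked to the Fzd4 allele and the loss of Fzd4 cannot be told apart for it. Tigar, a regulator of glycolysis, stood at -0.83, Zmat3, which encodes an RNA-binding protein, at -0.57, Polk, a translesion DNA polymerase gene, at -0.48 and Fbxw7, a ubiquitin ligase subunit gene, at -0.27. Without M3, when 3292 genes passed, so did Aen (adjusted p = 0.00796), Zmat3 (0.0151), Polk (0.0354) and Tigar (0.0445). Once the B1 signal entered the model, Aen stood at -0.81, Tigar at -0.50, Zmat3 at -0.24, Fbxw7 at -0.20 and Polk at -0.18. Second probe sets of Polk (0.060) and Fbxw7 (0.066) did not share that direction.

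Regulators of p53 and the damage kinases were mixed. Of 17 measured, 11 lay lower, 2 without overlap (11.8%, against 12.2% of all genes), and 1 lay higher without overlap (5.88%, against 6.68%). The threshold was passed by 0. At an unadjusted p under 0.05, 1 was lower (Atm), where 9.23% of all genes were. Atm, the kinase that responds to double-strand breaks, stood at -0.38 (SE 0.16, limma adjusted p = 0.325), or -0.11 with the B1 signal in the model. Without M3, when 3292 genes passed, Atm stood at -0.52 (limma adjusted p = 0.0343). Usp7, the deubiquitinase of Mdm2 and p53, stood at -0.24. Cop1, another ubiquitin ligase for p53, stood at 0.29. Mdm4, the partner of Mdm2 that blocks p53 activity, stood at -0.26 with overlap, and its other probe sets ranged from -0.78 to 0.060.

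In the rest of the BCL2 family, 9 of 12 measured genes lay lower, 3 without overlap (25%, against 12.2% of all genes). Another 1 lay higher without overlap (8.33%, against 6.68%). All but 1 of the 12 had a mean log2 of at least 6. Of genes at that level 71.5% lay lower, 16.3% without overlap, and 3.08% were higher without overlap. Of the 12, none passed the threshold. At an unadjusted p under 0.05 there were 2 lower and 1 higher, where 9.23% and 6.05% of all genes were. Bcl2 itself, the survival gene that Bcl2l11 opposes, read 9.997, 9.76 and 9.92 in C1 to C3 and 9.20, 9.19 and 9.47 in M1 to M3. The difference was -0.60 (SE 0.14, limma adjusted p = 0.314), or -0.46 with the B1 signal in the model. Without M3, when 3292 genes passed, Bcl2 stood at -0.69 (limma adjusted p = 0.0203). Of its 5 probe sets 4 were lower without overlap, from -1.03 to -0.60, and 1 stood at 0.11. The survival gene Bcl2l2 stood at -0.47 and the BH3-only gene Bmf at -0.29, but their other probe sets lay higher, up to 0.29 for Bcl2l2 and 0.63 for Bmf. Bnip3, which encodes a mitochondrial protein induced by hypoxia, stood at 0.38. The survival genes Mcl1 and Bcl2l1 stood at -0.066 and 0.26, both with overlap. Their other probe sets ranged from -0.50 to -0.0064 for Mcl1, the lowest without overlap (1416881_at), and from -0.36 to -0.019 for Bcl2l1.

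Bcl2l11 and Bcl2, an antagonist and its target, were thus both lower in double-null kidneys. Their log2 ratio (Bcl2l11 minus Bcl2, probe sets 1435448_at and 1457687_at) was 1.41, 1.85 and 1.80 in C1 to C3 and 1.65, 1.75 and 1.89 in M1 to M3. It differed by 0.074 between the groups, which follows from the similar differences of these 2 probe sets, -0.53 and -0.60. The pair was chosen after its values were seen, so the small difference is no test of an unchanged balance. It also depends on the probe sets, the others of which ran from -1.22 to -0.56 for Bcl2l11 and from -1.03 to 0.11 for Bcl2. A ratio between probe sets does not show which transcript is more abundant.

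**Figure D4:**
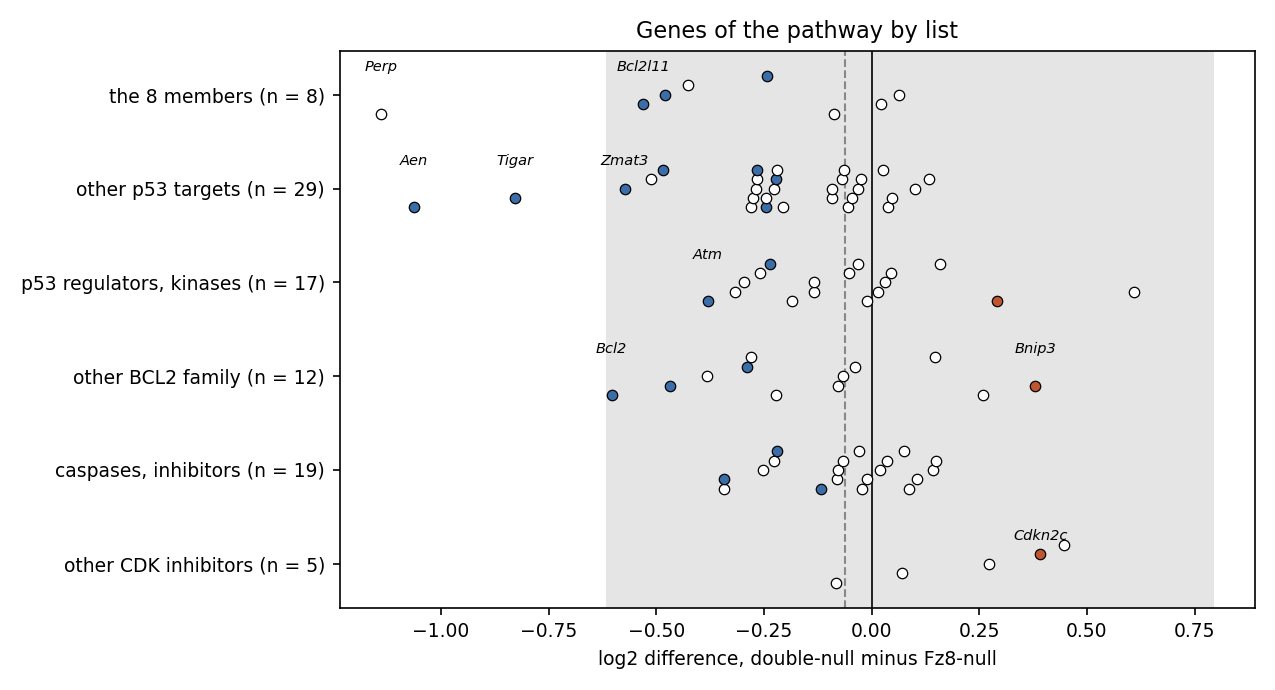
Log2 difference of every measured gene in 6 lists; blue points have all 3 double-null arrays below all Fz8-null arrays, red points all above, and white points overlap. Grey marks the 5th to 95th percentile of all 18193 genes and the dashed line their median of -0.061; Perp, Aen and Tigar lie to the left of the grey band.

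Caspases and the genes that switch them on or hold them back lay near the median of all genes, -0.061. Of 19 measured caspase, apoptosome and inhibitor genes, 12 lay lower and 7 higher, with a median of -0.028. All 19 had a mean log2 of at least 6. At that level the median was lower, at -0.15, and 71.5% of genes lay lower. Of the 19, 3 were lower without overlap (15.8%, against 12.2% of all genes and 16.3% at that level) and 0 higher. None of the 19 passed the threshold or an unadjusted p of 0.05. The 3 were Fadd, the death receptor adaptor gene, at -0.34, and the initiator caspase genes Casp9 at -0.22 and Casp2 at -0.12. Dimmer Casp9 probe sets stood at 0.21 and 0.24.

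Of 5 cyclin-dependent kinase inhibitors other than Cdkn1a, 4 lay higher, with a median of 0.27. Of all 18193 genes 7617 lay higher, and of the 11174 with a mean log2 of at least 6, 3183 did. Dimmer genes thus lay higher more often, and 2 of the 5 had a mean log2 below 6. Of the 5, 1 lay higher without overlap (20%, against 6.68% of all genes) and 0 lower, with 0 past the threshold. At an unadjusted p under 0.05, 1 was higher, where 6.05% of all genes were. That gene was Cdkn2c, which encodes p18, at 0.39 (SE 0.12, limma adjusted p = 0.314) with a mean log2 of 5.86. Cdkn2b, near background with a mean log2 of 3.90, stood at 0.45 with overlap. Cdkn1c (0.27), Cdkn1b (0.071) and Cdkn2d (-0.083) also overlapped. The proliferation list, read beside them, had 6 genes higher and 5 lower of 11, with a median of 0.055.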

How the data were processed

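The authors deposited 1 log2 intensity per probe set and array, made with RMA per the submitters' processing notes (version not given in the sources used here), from Affymetrix MOE430.2 arrays hybridised with cRNA from 100 ng of total RNA. Of 45101 probe sets, 64 controls were set aside. The platform annotation gave 1 gene for 34945 probe sets, several for 932 and none for 9160. Bax and other listed genes without a probe set of their own were not analysed here. Values were used as deposited. Arrays carry no read depth, so their number limits the precision. The p-values set each difference against a spread between these arrays that eBayes moderates with the spread of all genes.

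Double-null was compared with Fz8-null using limma 3.58.1 (R 4.3.3, lmFit and eBayes), two-sided, with Benjamini-Hochberg adjustment over all genes, or over all probe sets where single non-representative probe sets are given. Intervals are limma's 95% intervals for 1 gene. On simulated data over 45037 probe sets, 26 of 100 probe sets changed by 1 log2 unit and 60 of 100 changed by 2 were recovered.

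The members, the gene lists and the alternatives were chosen with earlier results of these data known. Named genes were all members, Fzd4, fixed key regulators, and from each list non-overlapping genes (up to 5 per direction, by p) or, where fewer than 2, those of smallest p. Alternatives were other normalizations, a minimum mean log2 of 6, other variance settings, array weights, a replicate block, a B1 covariate, the mean of probe sets and leaving out each array. Residual correlations of same-numbered arrays were 0.19, -0.20 and 0.17, and those of the other pairs ran from -0.29 to 0.27. With 3 arrays per group such values cannot show or exclude pairing.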

Additional observations from a re-analysis of the deposited data

Results flagged for a closer look

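Control probe sets outside the comparison gave a signal above the Fz8-null arrays. The 18S ribosomal RNA control at the 5′ end of the transcript read 2.11 higher in double-null than in Fz8-null kidneys on the log2 scale, and the one at the 3′ end 1.73 higher, with no overlap between the groups in either. The control in the middle of the transcript did not share this, with 11.23, 11.43 and 11.38 in C1 to C3 and 10.79, 11.12 and 11.87 in M1 to M3. The part of the 5′ and 3′ signal in the differences of the p53 targets was not tested.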

How the results depend on the processing

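Across the alternatives, Bcl2l11, Bbc3, Cdkn1a and Perp kept a negative difference throughout. The count of members past the threshold was 5 with array weights, where 7727 of all 18193 genes passed. These weights were 4.43 for M1 and 0.185 for M3. With 1 array left out the count was 0 to 2, and it was 2 without M3, where 3292 genes passed. The count of members whose groups did not overlap was 1 with equal array medians and 2 with quantile normalization (Mdm2 overlapped). With the mean of all probe sets it was 2 (Bbc3 lower and Mdm2 higher). It was 3 to 5 with 1 array left out, where 2 arrays against 3 separate more easily than 3 against 3. The share of all genes without overlap was not counted under these alternatives, so these counts of members have no background beside them. Without M3 the 5 were Bbc3, Bcl2l11, Cdkn1a and Mdm2, all lower, and Ccng1, which was higher. The median of the members was -0.49 with array weights and -0.16 with the mean of all probe sets. The number of genes past the threshold was 7727 with array weights, 3 with the replicate block, 3 with the B1 covariate, 1 with the mean of all probe sets and 2 to 3292 with 1 array left out. With the replicate block the members' differences were as without it and none passed.

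Directions turned as follows. With the mean of all probe sets Mdm2 stood at 0.31, Trp53inp1 at 0.0039, Bcl2l1 at -0.046, Bcl2l2 at 0.033, Bmf at 0.13 and Casp9 at 0.077. With array weights Pmaip1 stood at -0.49 and Trp53inp1 at 0.032. With the B1 covariate Ccng1 stood at -0.37, Fzd8 at 0.030 and Mcl1 at 0.0064. Fzd8, which both groups lack, had a mean log2 of only 3.83. Without the covariate it stood at -0.29 with overlap (limma adjusted p = 0.529). With 1 array left out Ccng1 ranged from -0.14 to 0.28, Pmaip1 from -0.26 to 0.44 and Trp53inp1 from -0.17 to 0.012. The cause was not tested. A minimum mean log2 of 6 leaves out Bbc3, so that gene has no value there.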
